A study of Mus musculus with 27 samples.

Results

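The 6 genes Sparc, Sparcl1, Smoc1, Smoc2, Fstl1 and Spock1 encode secreted proteins of the SPARC family, and they were followed among the 55487 genes counted in the mouse optic stalk (OS). They were chosen by the measured CPM of Sparc, which was lower in mutant than in control libraries in the dorsal OS and higher in the region of the retinal ganglion cell (RGC) axons. Genotype differences of the 6 genes in those regions, and differences of Sparc between regions, are therefore given as descriptions with no test. The ventral OS, and the regional differences of the other 5 genes, were tested.

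Geo-seq, which amplifies and sequences RNA from laser-captured pieces of tissue, was applied to fresh-frozen heads at embryonic day (E) 14. The dorsal OS, the ventral OS and the axon region were captured from each of 4 control and 5 mutant embryos, which gave 27 libraries in 6 groups. The mutants (Smarcc1-DCT-cKO) were Smarcc1 loxP/loxP and carried Dct-Cre and the Z/EG reporter, and the controls were littermates without Dct-Cre, all on the C57Bl6/J background. Smarcc1 encodes BAF155, a core component of SWI/SNF chromatin remodellers. Dct-Cre is driven by the regulatory sequence of a pigment gene, and in which of the cells of the captured pieces it was active was not measured here. Batch A of the labels held the libraries of 1 control and 3 mutant numbers, batch B those of 3 controls and 2 mutants, and what the batches were is not said.

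SPARC-family proteins are matricellular: they are secreted into the extracellular matrix and modulate adhesion, collagen assembly and growth factor signalling rather than building the matrix. Members share an extracellular calcium-binding domain and a follistatin-like domain. SPARC binds fibrillar and basement membrane collagens, and in nervous tissue SPARC and its close relative SPARCL1 (hevin) are known as products of glia and of vessels that act on synapses in opposite ways. FSTL1 and the SMOC proteins are known to interfere with bone morphogenetic protein (BMP) signalling, and SPOCK1 (testican-1) is a proteoglycan of the same family.

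Libraries held 10.9 to 34 M counts (M, 1e6), and levels are given as counts per M counts of the library (CPM). Smarcc1, the deleted gene, was at 75.7 to 197.9 CPM in ventral controls against 14.7 to 64.4 CPM in ventral mutants, and at 50.1 to 242.0 CPM in axon controls against 1.86 to 44.9 CPM in axon mutants. In the dorsal OS its ranges overlapped, with 75.9 to 289.3 CPM in controls and 2.26 to 106.6 CPM in mutants. The label of the axon region matched its markers, since the summed level of 10 neuronal genes was 2565 to 5548 CPM there against 270.1 to 2294 CPM in the stalk groups. Axon libraries had fewer detected genes in the mean than the stalk libraries, with 10076 to 14118 in controls and 9225 to 11358 in mutants. These are bulk samples, in which fewer cells of a type and less RNA per cell cannot be told apart.

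The promoters of Sparc and Fstl1, the most abundant members, are shown because both genes were lower in every dorsal mutant, while their log2 fold changes in the axon region were 0.79 and 0.09. Each is the stretch of 250 bases just before the RefSeq start, on the gene's own strand (GRCm38.p6, the patched release of the mm10 build), at chr11:55420081-55420330 (minus strand) for Sparc and chr16:37776805-37777054 (plus strand) for Fstl1. Capitals mark the motifs that were searched on both strands, the TATA box TATAAA, the GC box GGGCGG, the purine-rich motif GGAGGA and the repeat CTCTCTCT, the last chosen after the sequence was seen.
Sparc: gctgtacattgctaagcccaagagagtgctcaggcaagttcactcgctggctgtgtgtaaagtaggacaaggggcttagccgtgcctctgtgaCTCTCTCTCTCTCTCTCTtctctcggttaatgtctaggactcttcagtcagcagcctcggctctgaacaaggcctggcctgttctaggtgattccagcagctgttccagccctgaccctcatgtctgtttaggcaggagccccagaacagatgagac
Fstl1: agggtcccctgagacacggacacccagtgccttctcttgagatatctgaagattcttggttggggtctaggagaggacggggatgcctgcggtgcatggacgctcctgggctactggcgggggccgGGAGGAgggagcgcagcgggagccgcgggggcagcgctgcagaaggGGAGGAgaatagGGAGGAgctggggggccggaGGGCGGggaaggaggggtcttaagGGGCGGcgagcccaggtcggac
The Sparc stretch held 6 overlapping matches of CTCTCTCT in 1 repeat, which 3.53% of 32851 promoters of this length also held at least once. The Fstl1 stretch held 2 matches of GGGCGG, found in 32.7% of promoters, and 3 of GGAGGA, found in 29.2%. Neither stretch held TATAAA, which 12.4% did. For both genes the start used by RefSeq lies inside the longer span that GENCODE gives the gene. That span covers the whole Sparc stretch and the part of the Fstl1 stretch from 37776873 on, with its marked motifs.

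Per kilobase of exon, Sparc was the most abundant member, with a mean over 27 libraries of 429 CPM per kb. Fstl1 followed with 145.0 CPM per kb and Sparcl1 with 36.3 CPM per kb. Smoc1 (3.43 CPM per kb), Smoc2 (1.01 CPM per kb) and Spock1 (0.195 CPM per kb) were near the limit of detection in most libraries. Sparc, Sparcl1 and Fstl1 had counts in all 27 libraries, Smoc1 in 14, Spock1 in 9 and Smoc2 in 5. All 6 passed the filter of more than 10 counts in at least 3 libraries, with Smoc1 above 10 counts in 11 libraries, Spock1 in 7 and Smoc2 in 3.

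**Figure D1:**
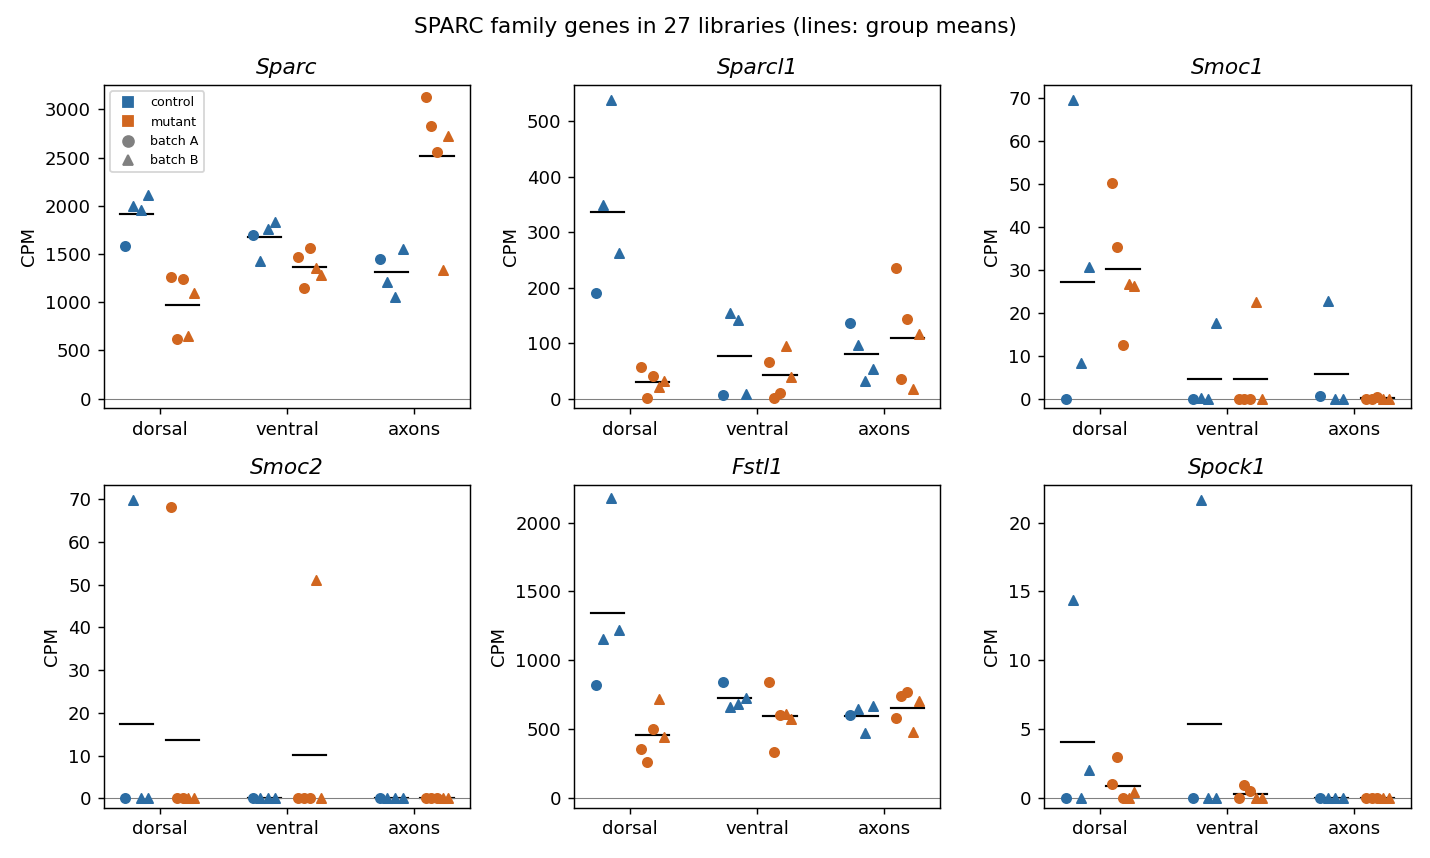
CPM of each of the 6 genes (linear y axes, 1 panel per gene) in the dorsal, ventral and axon regions, with 1 point per library, controls and mutants in separate colours, and black lines at group means. Sparc in the 5 dorsal mutants sat between 618.5 and 1261 CPM, below the 4 dorsal controls, whereas 4 of 5 axon mutants sat above all axon controls.

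Sparc encodes the founding member of the family. It lies on the minus strand of chromosome 11 at 55394500 to 55423183 (mm10; ENSMUSG00000018593.13) and shares no exonic bases with another gene. In the dorsal OS it was at 1578, 1997, 1957 and 2107 CPM in controls 1 to 4 and at 1261, 618.5, 1235, 643.5 and 1091 CPM in mutants 1 to 5. All 5 mutants were below all 4 controls, with means of 969.8 ± 316 (SD, n = 5) and 1909.8 ± 230.0 CPM (SD, n = 4). The control mean was 1.97-fold the mutant mean, and the edgeR log2 fold change was -0.97 ± 0.26 (SE). These are among the values that chose the genes.

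In the axon region Sparc went the other way. Controls had 1451, 1207, 1055 and 1553 CPM and mutants had 3128, 2824, 2560, 1332 and 2725 CPM. Mutants 1, 2, 3 and 5 were above every control, and mutant 4 lay within the range of the controls. The means were 1317 ± 227 (SD, n = 4) and 2514 ± 692 CPM (SD, n = 5), a mutant level 1.91-fold that of controls, with a log2 fold change of 0.79 ± 0.20 (SE) against a median of -0.29 over all genes. Without mutant 4 the log2 fold change was 1.04, and without mutant 5, which leaves mutant 4 as the only mutant of batch B, it was 0.47.

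The genotype difference in the ventral OS was not part of the rule that chose the genes. Earlier results of these data were known at that choice, and the ventral pieces came from the same embryos. In the ventral OS Sparc was at 1695, 1428, 1762 and 1827 CPM in controls and at 1473, 1143, 1559, 1354 and 1287 CPM in mutants. The ranges overlapped, although 3 of 5 mutants were below all controls. The mutant mean of 1363 ± 162 CPM (SD, n = 5) compared with 1678 ± 175 CPM in controls (SD, n = 4), and the log2 fold change was -0.34 ± 0.16 (SE). This was not called by edgeR (adjusted p = 0.999 over all genes, unadjusted p = 0.0578). An exact permutation test of log2(CPM + 1), two-sided over 126 splits, gave p = 0.0397, and over the 40 splits that keep the batches it gave p = 0.05, where the smallest possible is 0.025. Of the 6 genes tested in this way, the 5 others gave exact permutation p-values from 0.198 to 1. The mesenchyme sum was 55.5 to 1335 CPM in ventral controls and 53.9 to 180.8 CPM in ventral mutants, the astrocyte progenitor sum 3822 to 5594 against 2716 to 4700.4 CPM, and the pigment epithelium sum 240.7 to 1189 against 656 to 3982 CPM. The part of these cell types in the ventral values was not tested.

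The direction of Sparc in the dorsal and axon regions was the same in both batches. Dorsal means in batch A were 1578 CPM in the 1 control and 1038 CPM in mutants, and in batch B 2020.4 and 867.2 CPM. Axon means in batch A were 1451 CPM in the 1 control and 2837 CPM in mutants, and in batch B 1272 and 2028 CPM.

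Sparc was also set side by side in the libraries of 1 genotype that share a replicate number. These were taken as the 3 regions of 1 embryo, which neither the labels nor the methods state. In controls the dorsal level was above the axon level in 4 of 4 numbers, by 1.09- to 1.85-fold. In mutants the axon level was above the dorsal level in 5 of 5 numbers, by 2.07- to 4.57-fold. Both orders hold however the libraries are matched, since the dorsal and axon ranges of Sparc did not overlap in either genotype. Mutant 4, whose axon value was within the control range, had a dorsal value of 643.5 CPM and so kept the same order. Ventral levels were above dorsal levels in 5 of 5 mutant numbers and in 1 of 4 control numbers.

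**Figure D2:**
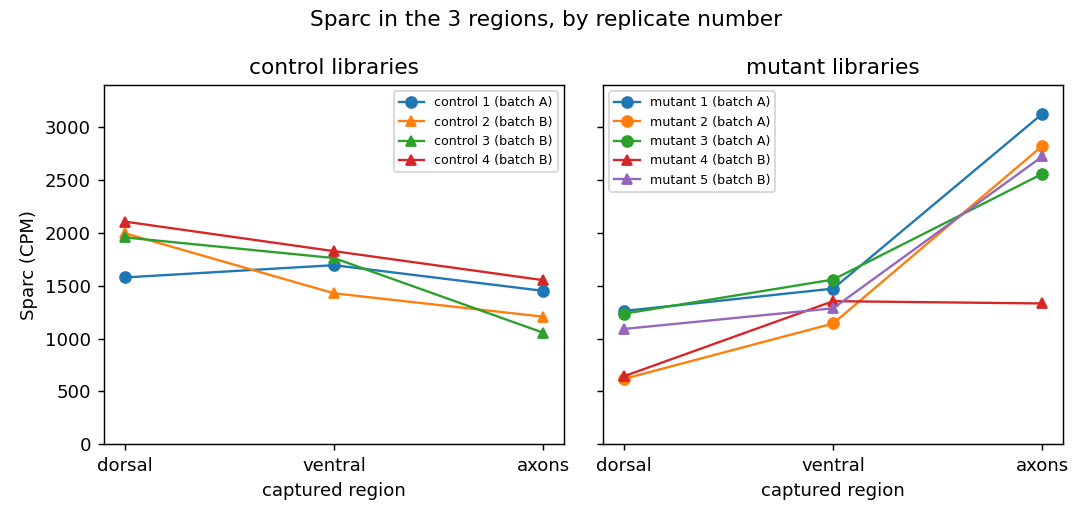
Sparc (CPM, linear axis from 0) in the dorsal, ventral and axon regions, with 1 line joining the libraries of 1 replicate number, controls in the left panel and mutants in the right, circles for batch A and triangles for batch B. Lines fall from dorsal to axon in the 4 controls and rise in the 5 mutants, by 2.07- to 4.57-fold.

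Across the 6 groups the mean Sparc level fell in the order axon mutants, dorsal controls, ventral controls, ventral mutants, axon controls and dorsal mutants. Each group overlapped its neighbour in that order, so neighbours were not separated beyond their spread. The highest and the lowest group were both mutant groups, at 2514 and 969.8 CPM.

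Sparcl1, on chromosome 5 at 104079111 to 104113733 (minus strand; ENSMUSG00000029309.7), had the largest dorsal fold among the 3 members with counts in every library. Dorsal controls had 190.7, 349.4, 538.2 and 262.8 CPM and dorsal mutants 56.7, 0.0596, 41.4, 21.4 and 31.0 CPM. All mutants were below all controls, and mutant 2 had under 3 counts, the limit that a count of 0 allows. The control mean was 335 ± 150.0 CPM (SD, n = 4) and the mutant mean 30.1 ± 21.3 CPM (SD, n = 5), an 11.1-fold difference and a log2 fold change of -3.38 ± 1.14 (SE).

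In the other regions Sparcl1 showed no separation of the genotypes. Ventral controls had 6.95, 153.5, 140.7 and 7.83 CPM and ventral mutants 66.2, 0.0615, 9.30, 93.9 and 38.4 CPM. Both ventral groups spanned more than 10-fold, so the log2 fold change of 0.15 ± 1.63 (SE) carried little information, and its sign depended on the processing (edgeR adjusted p = 0.999). The exact permutation test gave p = 0.635. In the axon region controls had 136.8, 97.2, 31.8 and 52.4 CPM and mutants 235.4, 35.3, 143.8, 16.5 and 117.1 CPM, with a log2 fold change of 0.11 ± 0.85 (SE). That sign depended on single libraries and on the tool, with -0.98 without mutant 5 and -0.46 by limma voom. The genotypes of Sparc and of Sparcl1 thus both overlapped in the axon region. For Sparc 4 mutants were above all controls, and for Sparcl1 2 were above and 1 was below all controls. The difference between the 2 genes was not tested.

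Fstl1 encodes follistatin-like 1, a secreted glycoprotein with an inhibitory role in BMP signalling. It lies on chromosome 16 at 37776873 to 37836514 (plus strand; ENSMUSG00000022816.11). Dorsal controls had 823.2, 1159, 2179 and 1223 CPM and dorsal mutants 354.2, 266.4, 506.0, 719.0 and 446.9 CPM. All 5 mutants were again below all controls, with means of 459 ± 172 (SD, n = 5) and 1346 ± 583 CPM (SD, n = 4), a 2.94-fold difference and a log2 fold change of -1.27 ± 0.29 (SE).

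Ventral controls had 845.3, 664.8, 682.0 and 725.2 CPM of Fstl1 and ventral mutants 842.6, 337.0, 605.9, 611.3 and 572.2 CPM. Mutant 1 lay within the control range and the other 4 were below it. The log2 fold change of -0.35 ± 0.25 (SE) was not called by edgeR (adjusted p = 0.999), and the exact permutation p was 0.198, or 0.175 within batches. Axon controls had 600.6, 646.7, 475.1 and 668.8 CPM and axon mutants 585.4, 740.2, 771.8, 482.5 and 703.8 CPM. Mutants 2, 3 and 5 were above all controls and mutants 1 and 4 within their range, and the log2 fold change was 0.09 ± 0.23 (SE), which turned to -0.09 without mutant 5 and to -0.01 without control 1.

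**Figure D3:**
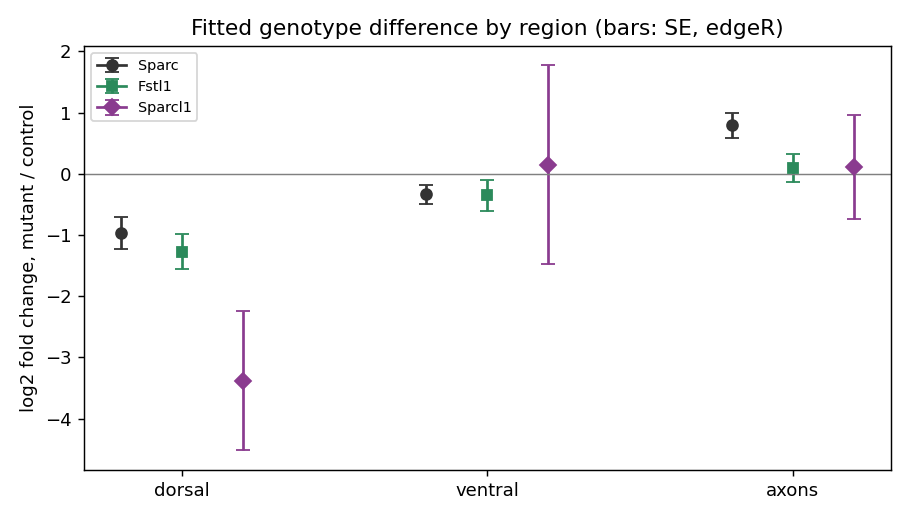
Log2 fold change of mutants over controls from the edgeR fit (y axis) for Sparc, Fstl1 and Sparcl1 in the dorsal, ventral and axon regions, with bars of 1 SE and a line at 0. The dorsal estimates are all below 0 (-0.97, -1.27 and -3.38), and in the axon region Sparc is at 0.79 while the others are within 1 SE of 0.

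The SMOC genes encode secreted modular calcium-binding proteins, which are known as BMP antagonists. Smoc1 (chromosome 12, 81026808 to 81186414, plus strand; ENSMUSG00000021136.13) was found mainly in the dorsal OS. Dorsal controls had 0, 69.6, 8.38 and 30.8 CPM and dorsal mutants 50.3, 35.2, 12.5, 26.6 and 26.2 CPM. The ranges overlapped, and the mutants, all above 0, lay within the wide range of the controls. In the ventral OS it was 0 or at most 0.153 CPM in all but control 4 (17.7 CPM) and mutant 4 (22.5 CPM). In the axon region it was at 22.6 CPM in control 2 and at most 0.556 CPM in the other libraries. Smoc2 (chromosome 17, 14279506 to 14404790, plus strand; ENSMUSG00000023886.10) exceeded 3 counts in 3 of 27 libraries: dorsal control 2 (69.9 CPM), dorsal mutant 1 (68.2 CPM) and ventral mutant 4 (51.1 CPM). It had a count of 0 in all 9 axon libraries, where 3 counts equal at most 0.204 CPM, and was not tested there. Apart from Smoc1 in the dorsal OS, these patterns were of single libraries. The genotype ranges of both genes overlapped, or were at 0, in every region.

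Spock1 (chromosome 13, 57421195 to 57908332, minus strand; ENSMUSG00000056222.15) exceeded 3 counts in 8 of 27 libraries. Its highest values, 21.7 CPM in the ventral and 14.4 CPM in the dorsal OS, came from the libraries numbered control 2, which also held the highest Smoc2 value. Axon libraries had 1 count in mutant 5 and 0 in the other libraries.

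Against the background of all genes, lower levels in every dorsal mutant than in every dorsal control were found for 260 of 16145 genes (1.61%) and for 3 of the 6 members, but the dorsal contrast chose the set and nothing is read from that count. By the edgeR call, which asked for an adjusted p under 0.05 and a log2 fold change beyond 0.58 in either direction, 0.0124% of genes were called in the dorsal comparison. In the ventral OS, 0 of 6 members had separate genotype ranges, against 1.23% of all genes in either direction. Among axon libraries 0 members had separate ranges, against 1.28% of all genes. In the ventral comparison edgeR called 0 of 6 members and 0% of genes, 0 members had an unadjusted p under 0.05 (515 of all 16139 genes did), and DESeq2 and limma voom also called 0 members. No gene was called by edgeR in the axon comparison (0%). The deleted gene Smarcc1 was itself not called in the dorsal, ventral or axon comparison, although its ranges were separate in the ventral and axon regions. In the dorsal fit its log2 fold change was -1.66 ± 0.99 (SE, edgeR adjusted p = 0.953). A lack of calls in these fits therefore does not show a lack of change.

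Regional differences were compared with the replicate number as a block, in controls and in mutants separately, for the 5 genes other than Sparc. In controls, Fstl1 and Sparcl1 had their highest means in the dorsal OS. Sparcl1 was higher in the dorsal than in the ventral OS in 4 of 4 control numbers, with a log2 fold change of 2.70 ± 0.97 (SE). Fstl1 was higher in the dorsal OS than in the axon region in 4 of 4 control numbers, by 1.37- to 4.59-fold, with a log2 fold change of 0.93 ± 0.27 (SE). It was above its ventral level in 3 of 4, with a difference of 0.84 ± 0.27 (SE) on the log2 scale. These differences were not called by edgeR, whereas DESeq2 called Sparcl1 between dorsal and ventral (adjusted p = 0.0495) and Fstl1 between dorsal and axon (adjusted p = 0.0431). The edgeR unadjusted p-values were 0.0188 for Sparcl1 and 0.0105 for Fstl1 between dorsal and ventral, and 0.00599 for Fstl1 between dorsal and axon, with adjusted p of 1, 1 and 0.45. The summed level of 12 mesenchyme markers moved with these differences, at means of 4349.9 CPM in dorsal, 422 CPM in ventral and 1239 CPM in axon controls, and its part in them was not tested.

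In mutants the same genes were lower in the dorsal OS than in the axon region in 4 of 5 numbers each, and the mean mesenchyme sum was 182 CPM in the dorsal OS and 1256 CPM in the axon region. The log2 differences, dorsal over axon, were -0.75 ± 0.27 (SE) for Fstl1 (edgeR unadjusted p = 0.0168, adjusted p = 0.323) and -3.14 ± 1.47 (SE) for Sparcl1 (adjusted p = 0.449). Over all genes the median difference between these regions was 0.96 in mutants and 0.37 in controls, so both genes stood further below the typical gene. Mutant 4 was the exception for both genes. Smoc1 was higher in the dorsal OS than in either other region in 5 of 5 mutant numbers, from 12.5 to 50.3 CPM against 0 to 22.5 CPM in the ventral OS and 0 to 0.272 CPM in the axon region. Its edgeR unadjusted p-values were 0.0294 against the ventral OS and 0.00902 against the axon region, and the adjusted p-values were 1 and 0.259. Without the block its dorsal to ventral difference fell from 10.2 to 2.82 on the log2 scale (edgeR unadjusted p = 0.247).

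By edgeR, 0 of 5 members were called in each of the 6 regional comparisons. Members with an unadjusted p under 0.05 numbered 2 (dorsal against ventral), 1 (dorsal against axon) and 0 (ventral against axon) in controls, and 1, 2 and 0 in mutants. Over all genes 456, 926 and 695 of 16231 did so in controls and 573, 1829 and 1689 of 16235 in mutants. The share of all genes called was 0% for dorsal against ventral, 0.222% for dorsal against axon and 0.0801% for ventral against axon in controls. In mutants the shares were 0.0246%, 0.634% and 0.517% in the same order. DESeq2 called 1, 2 and 0 of the 5 members in controls, where it called 6.86%, 13.2% and 11.3% of all genes, and 1, 3 and 1 in mutants, where it called 5.32%, 20.4% and 19.2%. Smoc2 is in the counts for dorsal against axon in both genotypes and for ventral against axon in mutants. Each of these Smoc2 calls rests on 1 stalk library, so nothing is read from them. The limma voom fit called Smoc1 in mutants between dorsal and ventral (0.45% of all genes called) and between dorsal and axon (4.63%), and 0 members between ventral and axon in mutants (4.43%) or in the 3 control comparisons (0.166%, 1.45% and 0.585%).

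Markers of other cell types moved with the dorsal differences of Sparc, Sparcl1 and Fstl1. The summed level of 12 mesenchyme genes, all 12 of them measured, was 1160 to 10836 CPM in dorsal controls and 65.9 to 373 CPM in dorsal mutants, where Col6a1 was at 0 in every library. Dorsal control 3, with the highest mesenchyme sum, also had the highest Fstl1 (2179 CPM) and Sparcl1 (538.2 CPM) of all libraries, but not the highest Sparc. Of the other lists, the endothelial sum of 8 genes was 226.8 to 443.6 CPM in dorsal controls and 43.2 to 488 CPM in mutants, the mural sum of 8 genes 117.4 to 266.4 against 42.7 to 275.0 CPM, the astrocyte progenitor sum of 12 genes 2798 to 3869 against 1009 to 1894 CPM, and the pigment epithelium sum of 10 genes 39.5 to 4927 against 3178 to 12772 CPM. The neuronal sum was 270.1 to 2294 against 397 to 1161 CPM and the erythroid sum of 8 genes 728 to 24360 against 176 to 7270 CPM. Dorsal control 3 also held the lowest of these pigment epithelium sums (39.5 CPM) and the highest erythroid sum (24360 CPM). It had the fewest detected genes of the stalk libraries (10881). Gfap and Rpe65, late markers of astrocytes and of pigment epithelium, were at 0 in both dorsal groups. The part of these cell types in the dorsal differences was not tested.

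In the axon region, where Sparc was higher in mutants, the mesenchyme sum overlapped between genotypes, at 436 to 2559 CPM in controls and 646 to 2380 CPM in mutants. Mutant 4, the low Sparc library, had 713 CPM, and mutant 5, with 2725 CPM of Sparc, had 646 CPM. The endothelial sum was 3.33 to 193.7 CPM in controls. In mutants 1, 2, 3 and 5 it was above every control, at 403.9, 363.4, 297.8 and 250.5 CPM. In mutant 4 it was 0.584 CPM. The same mutants thus stood above all controls for this sum and for Sparc, and its part was not tested. The mural sum was 9.01 to 104.8 CPM in controls against 0.350 to 80.5 CPM in mutants. In the same order the astrocyte progenitor sum was 4232 to 8462 against 3470 to 5015 CPM. The neuronal sum was 2565 to 3411 against 3337 to 5548 CPM. The pigment epithelium sum was 51.0 to 686 against 170.0 to 1283 CPM, and the erythroid sum 2617 to 8983 against 609 to 33049 CPM. Kcnj8 and Tagln were at 0 in both axon groups, as were Mlana, Rpe65 and the RGC factor Pou4f2. The lower gene detection in axon mutants moved with the Sparc difference too, and its part was not tested.

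**Figure D4:**
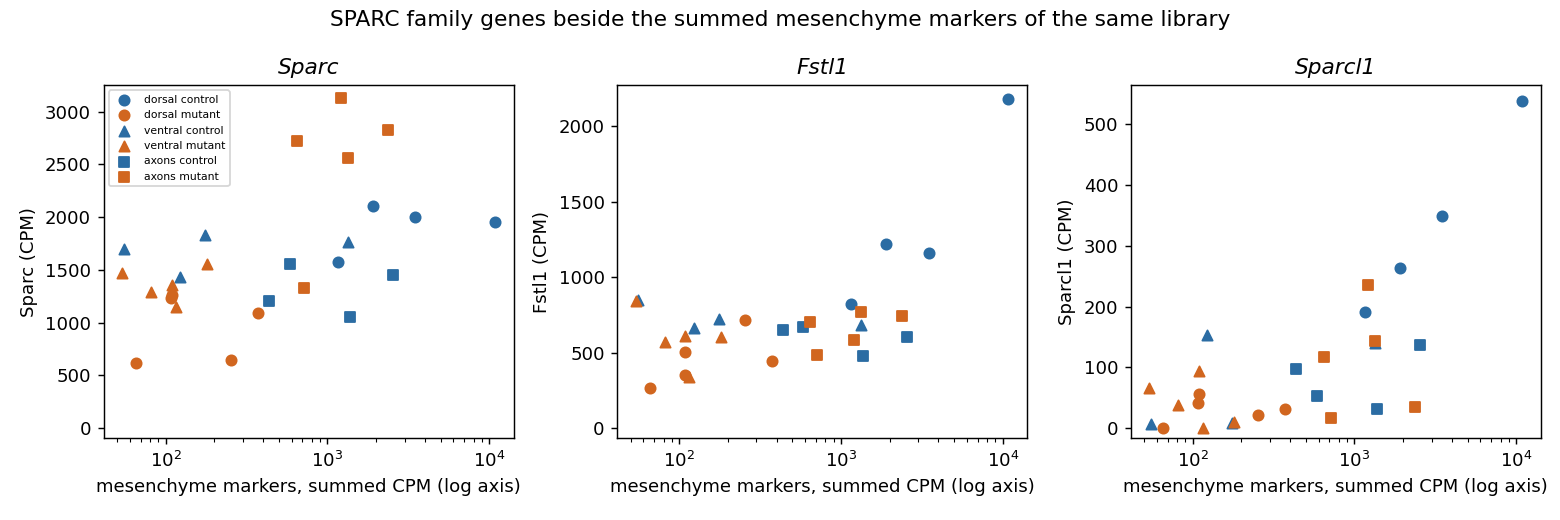
Sparc, Fstl1 and Sparcl1 (CPM, linear y axes, 1 panel per gene) against the summed CPM of 12 mesenchyme markers in the same library (log x axis), with circles for dorsal, triangles for ventral and squares for axon libraries, controls in blue and mutants in orange. Dorsal controls lie at mesenchyme sums of 1160 CPM and more and dorsal mutants at 373 CPM and less, while the 4 axon mutants with 2560 to 3128 CPM of Sparc lie among axon controls on the x axis.

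Sparc, Sparcl1 and Fstl1 were related across libraries, described here by Pearson's r of log2(CPM + 1) over 27 libraries that share embryos, regions and depth. The r was 0.67 for Sparcl1 and Fstl1, 0.55 for Sparc and Sparcl1, and 0.54 for Sparc and Fstl1. Within the 9 ventral libraries alone it was 0.53, 0.22 and 0.75 in the same order.

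The 5 other genes with the highest r to Sparc, among 7293 genes with a mean of at least 20 CPM, were Gng11 (0.71), Ifitm2 (0.66), Tbx18 (0.65), Cgnl1 (0.65) and Pid1 (0.63). Gng11 encodes a G protein gamma subunit, Ifitm2 an interferon-induced membrane protein, Tbx18 a T-box transcription factor, Cgnl1 a cell junction protein and Pid1 an adaptor protein. Tbx18 had means of 26.1 CPM in dorsal controls, 2.78 CPM in dorsal mutants, 21.9 CPM in axon controls and 84.9 CPM in axon mutants, with at most 0.0752 CPM in the ventral means. Cgnl1 had 52.2 and 5.76 CPM in the dorsal groups and 8.45 and 69.4 CPM in the axon groups. With log2(CPM + 10) 3 of the 5 stayed among the first 5, and over the ventral libraries alone 0 did.

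The partners of SPARC were taken from 5 lists of 47 genes. Of the 8 collagens that SPARC binds and their chaperone, edgeR called 0 in each of the 9 comparisons. In the dorsal genotype comparison 4 of the 8 had an unadjusted p under 0.05, as did 864 of all 16145 genes, and 4 were called by DESeq2 (3.3% of all genes called), 0 by limma voom (0.322%) and 4 by edgeR with no count filter (0.385%). The collagen list had a median log2 fold change of -3.24 in dorsal mutants (all genes, -0.04), with 8 of 8 lower, of -1.08 in the ventral OS (all genes, -0.08) and of -0.23 in the axon region (all genes, -0.29). Its most abundant genes, Col3a1 and Col1a2, which encode fibrillar collagen chains, had dorsal means of 1580.1 ± 1818 and 708.4 ± 808 CPM in the 4 controls and of 30.6 ± 38.2 and 46.7 ± 33.1 CPM in the 5 mutants (mean ± SD). Their axon means were 443.1 and 218.9 CPM in controls against 448.5 and 205.2 CPM in mutants. Both genes are also in the mesenchyme list.

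Among the receptor, cross-linker and proteases of SPARC, Mmp14, a membrane-bound collagenase, was called in mutants. It was lower in the dorsal OS (21.7 ± 4.63 CPM, SD, n = 5) than in the axon region (250.3 ± 122 CPM, SD, n = 5), an 11.5-fold difference with a log2 fold change of -3.69 ± 0.55 (SE, edgeR adjusted p = 0.00625). The call was lost without mutant 2 (adjusted p = 0.0816) or mutant 5 (adjusted p = 0.0746). Mmp14 thus had the same order of regions in mutants as Sparc. In the genotype comparisons edgeR did not call it. Its means were 77.8 and 21.7 CPM in dorsal controls and mutants and 75.1 and 250.3 CPM in axon controls and mutants. All dorsal mutants (14.6 to 27.1 CPM) were below all dorsal controls (47.8 to 115.1 CPM), as for 1.61% of all genes. All axon mutants (96.4 to 425.3 CPM) were above all axon controls (53.6 to 95.7 CPM). There 1.28% of genes had separate ranges in either direction. Of this list DESeq2 called 1, 1 and 0 genes between genotypes in the dorsal, ventral and axon regions (3.3%, 2.12% and 8.27% of all genes). Counts by limma voom were 0, 1 and 0 (0.322%, 0.031% and 0.327%). In the ventral OS Tgm2 was the gene of this list with separate ranges, as for 1.23% of all genes in either direction. It was at 5.95 to 15.3 CPM in controls and at 0 in every mutant. The list's median log2 fold change between genotypes was -1.17 in the dorsal, 0.03 in the ventral and 1.75 in the axon region.

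Of 12 other matricellular genes, edgeR called Tgfbi, in 1 comparison. It had 0 counts in all 4 ventral controls and 35.1 ± 29.9 CPM in axon controls (SD, n = 4), which ranged from 2.11 to 68.3 CPM. The axon mean was 189.9-fold the mean level of 3 counts in the ventral libraries (edgeR adjusted p = 0.0389 for the regional difference). That call was lost without any 1 of the 4 control numbers (adjusted p from 0.126 to 0.54). Of the same list DESeq2 called 2, 1 and 2 genes between genotypes in the dorsal, ventral and axon regions (3.3%, 2.12% and 8.27% of all genes). The limma voom fit called 0 in each (0.322%, 0.031% and 0.327%). Between regions (dorsal against ventral, dorsal against axon, ventral against axon) DESeq2 called 2, 2 and 4 in controls (6.86%, 13.2% and 11.3% of all genes). In mutants it called 4, 6 and 5 (5.32%, 20.4% and 19.2%). Counts by limma voom were 1, 0 and 1 in controls (0.166%, 1.45% and 0.585%) and 0, 3 and 2 in mutants (0.45%, 4.63% and 4.43%). Of the 7 other family and follistatin-like genes edgeR called 0. Between genotypes DESeq2 called 1 in the dorsal (3.3% of all genes), 0 in the ventral (2.12%) and 1 in the axon region (8.27%). Of these genes limma voom called 1 (0.322%), 0 (0.031%) and 0 (0.327%) in the same order. Their median log2 fold changes between genotypes were -0.42, -0.02 and -0.76, and those of the other matricellular genes were -0.28, 0.56 and 0.01. Among the other family genes Agrn, which encodes agrin, was the most abundant, at group means of 149.2 to 345.1 CPM. Spock3, which encodes the proteoglycan testican-3, followed, with 70.8 ± 119 CPM in the 4 dorsal controls and 28.8 ± 11.8 CPM in the 5 dorsal mutants (mean ± SD), and with group means of 0.0408 to 28.8 CPM in the other regions. Of the 13 BMP pathway genes edgeR called 0 in each comparison. Between genotypes in the dorsal, ventral and axon regions 0, 0 and 1 had an edgeR unadjusted p under 0.05. Over all genes 864 of 16145, 515 of 16139 and 531 of 14977 did so. DESeq2 called 0, 0 and 1 of the list (3.3%, 2.12% and 8.27% of all genes) and limma voom 0 in each (0.322%, 0.031% and 0.327%). The BMP targets Id3 and Id2 had dorsal means of 600.2 ± 269 and 308.7 ± 129 CPM in the 4 controls and of 762.9 ± 196 and 469.0 ± 243 CPM in the 5 mutants (mean ± SD), ranges that overlapped. The list's median log2 fold change was 0.12 in the dorsal, 0.24 in the ventral and 0.08 in the axon region.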

How the data were processed

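The authors captured, amplified and sequenced the RNA with single-end reads and deposited raw read counts per gene, with no scaling or filter, made by the Seq2Science pipeline with STAR alignment to mm10 and HTSeq counting. Versions, annotation and strand setting are not given in the sources used here. The cDNA carried no molecular identifiers, so floors cover counting error only.

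Symbols and positions came from GENCODE M21, which matched 55227 of 55487 identifiers; the 260 others held 0.00287% of counts. CPM was the count divided by the library total. Genes were kept at over 10 counts in 3 or more of the 27 libraries, and the 16330 kept were fitted with edgeR 4.0.16 in R 4.3.3 (quasi-likelihood, robust, legacy setting, TMM, two-sided, Benjamini-Hochberg over all genes). Genotypes were compared on the 9 libraries of a region with batch as a term, and regions within a genotype with the replicate number as a block. SEs are approximations, from each F statistic and its fold change. Alternatives included DESeq2 1.42.0 and limma voom (limma 3.58.1), and the steps were tested on simulated data. No 2 libraries held identical counts (0 pairs).

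The 3 regions were captured from each embryo, but no source states that libraries of 1 genotype with the same number are 1 embryo, which the block assumes. The correlation of their deviations from group means was -0.02 to 0.11 in controls and -0.01 to 0.10 in mutants. Genotypes share numbers but no embryos.

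The members and lists were chosen with earlier results of these data known. Named were the 6 members, the 5 genes most like Sparc, Smarcc1, and of each of 5 partner lists the called genes or else the most abundant 2. Tgm2 was named besides, for its separate ventral ranges. Marker lists covered mesenchyme, endothelial, mural, astrocyte progenitor, neuronal, pigment epithelium and erythroid cells. Tissue from an earlier stage was not analysed here.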

Additional observations from a re-analysis of the deposited data

Results flagged for a closer look

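In 12 of 33 groups of 4 or 5 libraries 1 library stood apart from the rest of its group by Dixon's test at 95%. In normally distributed values chance alone does so in about 1 in 20 groups. For the abundant genes these were Sparc in axon mutant 4 (1332 CPM, the others 2560 to 3128 CPM) and Sparcl1 in dorsal mutant 2 (0.0596 CPM, the others 21.4 to 56.7 CPM). The other 10 were the highest library of a group in which most were at or near 0. In such groups a single count can be enough for the flag, so 12 of 33 cannot be set against 1 in 20. For Smoc1 they were ventral control 4 (17.7 CPM), ventral mutant 4 (22.5 CPM), axon control 2 (22.6 CPM) and axon mutant 3 (0.272 CPM). For Smoc2 they were dorsal control 2 (69.9 CPM), dorsal mutant 1 (68.2 CPM), ventral control 2 (0.0763 CPM) and ventral mutant 4 (51.1 CPM). For Spock1 they were ventral control 2 (21.7 CPM) and axon mutant 5 (0.0444 CPM). Of these, the values of 0.0763 and 0.0444 CPM are single counts.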

How the results depend on the processing

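Of 404 alternative values of 33 results, 364 kept their direction and, where tested, their side of the threshold, and 17 changed sign, 15 of them of Sparcl1 and 2 of Fstl1. In the axon region, described with no test, Sparcl1 (0.11) turned in 5 alternatives, to -0.46 by limma voom, -0.08 with the replicate block and -0.98 to -0.08 without mutant 1, mutant 5 or control 3, and Fstl1 (0.09) in 2, to -0.09 without mutant 5 and -0.01 without control 1. The Sparcl1 ventral log2 fold change of 0.15 became -0.93 with no batch term, -0.66 in batch B alone, -0.79 with the replicate block (the replicate number in place of batch) and -0.22 in edgeR without the legacy setting, chosen after seeing the data, and it ranged from -0.67 to 0.84 with 1 library left out. Between ventral and axon in controls it ranged from -2.09 to 0.14, the last without control 1, and between dorsal and ventral in mutants it was 0.12 by limma voom and ranged from -0.91 to 0.42, the last without mutant 4. DESeq2 called Sparcl1 (1 member) between dorsal and ventral in controls, Smoc2 and Fstl1 (2) between dorsal and axon in controls, Smoc1 (1) between dorsal and ventral in mutants, Sparcl1, Smoc1 and Smoc2 (3) between dorsal and axon in mutants, and Smoc2 (1) between ventral and axon in mutants. The Smoc2 calls rest on 1 library each, in this order dorsal control 2, dorsal mutant 1 and ventral mutant 4. Those libraries also let Smoc2 pass the count filter. The limma voom fit called Smoc1 (1) in each of the dorsal comparisons in mutants. Of the 5 genes most like Sparc 3 stayed with log2(CPM + 10) and 0 with ventral libraries alone. The cause of these changes was not tested.

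For Sparc the described log2 fold change was -1.20 to -0.73 in the dorsal and 0.47 to 1.04 in the axon region over all alternatives, and the ventral one -0.38 to -0.23, with adjusted p from 0.49 to 1. With the replicate block, which pairs no embryos across genotypes, these were -1.07, 0.85 and -0.28, and 0 members were called in the ventral comparison. Regional fits without the replicate block also called 0 members. Tgfbi was not called by edgeR without the legacy setting (adjusted p = 0.259). At these depths a gene with 0 counts can lie at up to 0.0883 to 0.275 CPM, which limits what can be said of Smoc1, Smoc2 and Spock1.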
